A study of Mus musculus with 6 samples.

Results

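Macrophages and microglia caught in a sort of reporter-positive cells from the brains of stroke and sham-operated mice were described with single-cell RNA sequencing, mainly in the library from the infarct core. The cells were chosen by measured values. A cell of the 3 brain libraries was taken when it held at least 500 genes, at most 10% mitochondrial UMIs (unique molecular identifiers, 1 per captured transcript), at least 1 UMI of at least 4 of the 7 genes Ptprc, Csf1r, Cd68, C1qa, Tyrobp, Fcer1g and Lyz2, and no UMI of the endothelial cadherin gene Cdh5. This gave 225 of 7056 brain cells that passed the quality limits: 38 of 2646 in the sham library (1.44%), 52 of 2339 in the peri-infarct library (2.22%) and 135 of 2071 in the infarct library (6.52%). Exact 95% Clopper-Pearson intervals of these shares were 1.02% to 1.97%, 1.66% to 2.91% and 5.49% to 7.67%. With every cell thinned to 1000 UMIs before the rule the shares were 1.38%, 1.92% and 6.11%.

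All mice were Tbx18CreER/+;Rosa26tdT/+, in which tamoxifen-activated Cre driven from the Tbx18 locus, a gene of pericytes and smooth muscle cells, switches on the red fluorescent protein tdTomato. Tamoxifen was injected for 4 days, and a week of washout followed. Mice with photothrombosis, in which light clots the vessels of a patch of cortex, gave an infarct core library and a peri-infarct library, and mice with sham surgery gave the sham library. Cortex was dissociated, tdTomato-positive cells were sorted, and 1 library was made per group by the 10x 3′ v3 method. The time after injury, the age of the mice and the number of animals behind a library were not given in the labels. The members were therefore cells that came through a gate set for another lineage, and neither the share of macrophages in the tissue nor the way they came through the gate was tested; the tdTomato transcript was not used here. With 1 library per group there was no replicate check and no test between groups. Levels are a gene's counts per 1000000 UMIs (CPM), summed over the members of a library, and their intervals (exact Poisson) and those of shares cover counting error only.

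Microglia are the resident macrophages of the brain parenchyma, and border-associated macrophages live along the vessels and in the meninges. After a stroke, monocytes from the blood add further macrophages to the lesion, where phagocytes take up myelin and dead cells and have to store and export the lipid. Spp1 (osteopontin, a secreted glycoprotein), Gpnmb (a lysosomal membrane glycoprotein), Fabp5 (a fatty acid carrier), Plin2 (the coat of lipid droplets), Lgals3 (galectin-3), Trem2 (a lipid-sensing receptor) and Apoe (a lipid carrier) are known from such lipid-handling macrophages.

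The start regions of 3 of these genes are shown, whose transcripts moved together over single cells (values below) and whose windows held a motif searched for. Each runs 5′ to 3′ on the gene's strand from 250 bases before to 50 bases after the start (RefSeq, GRCm38.p6), with the motif found in capitals.
Spp1, chr5:104434861-104435160, plus strand: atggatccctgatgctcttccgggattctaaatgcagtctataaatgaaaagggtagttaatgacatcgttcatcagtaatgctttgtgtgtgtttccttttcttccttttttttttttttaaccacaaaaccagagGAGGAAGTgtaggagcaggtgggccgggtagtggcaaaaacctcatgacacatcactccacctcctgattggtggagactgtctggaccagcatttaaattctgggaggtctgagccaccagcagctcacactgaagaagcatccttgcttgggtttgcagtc
Gpnmb, chr6:49036268-49036567, plus strand: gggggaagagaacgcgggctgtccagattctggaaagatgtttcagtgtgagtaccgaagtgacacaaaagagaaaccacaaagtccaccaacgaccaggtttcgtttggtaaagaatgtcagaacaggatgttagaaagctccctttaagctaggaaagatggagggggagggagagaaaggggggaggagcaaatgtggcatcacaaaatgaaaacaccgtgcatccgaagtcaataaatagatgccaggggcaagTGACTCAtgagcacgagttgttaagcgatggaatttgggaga
Plin2, chr4:86670010-86670309, minus strand: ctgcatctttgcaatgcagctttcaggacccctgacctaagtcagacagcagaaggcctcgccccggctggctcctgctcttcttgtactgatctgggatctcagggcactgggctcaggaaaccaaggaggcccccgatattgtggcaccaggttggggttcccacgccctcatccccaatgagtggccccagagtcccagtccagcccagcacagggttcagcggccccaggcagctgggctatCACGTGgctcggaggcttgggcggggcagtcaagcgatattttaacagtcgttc
Searched on both strands were CACGTG, the site of MITF and TFEB family factors, GAGGAAGT, the site of PU.1, and TGAGTCA, the site of AP-1, and no motif contains another. The Spp1 window shown held GAGGAAGT, the second Spp1 window in the table (chr5:104435942-104436241) held none of the 3, the Gpnmb window held TGAGTCA as its complement TGACTCA, and the Plin2 window held CACGTG. Among 25 windows of 20 of the 25 genes of the lipid and Spp1 list, 1 held CACGTG (4%), 2 held GAGGAAGT (8%) and 3 held TGAGTCA (12%). Over all 32851 windows of 27025 genes the shares were 7.15%, 3.20% and 5.20%. The Lgals3, Trem2 and Apoe windows held none of the 3 motifs, although Lgals3 transcripts also moved with those of Spp1. A match is a match of letters, and no binding was measured.

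The label was checked against genes outside the rule. In infarct members the summed level of 12 T and NK cell genes was 57.2 CPM, that of 11 neutrophil genes 74.5 CPM and that of 10 endothelial genes 22.9 CPM, and all 5 mast cell genes were at 0. Of the 135 infarct members, 1 held at least 3 of the T and NK cell genes, and the highest cell held 5841 CPM of them. The 15 monocyte genes summed to 533 CPM in sham, 1171 in peri-infarct and 629 in infarct members, led by Fcgr1, which macrophages also express, and 57 of 135 infarct members held at least 3 of them. The 12 dendritic cell genes summed to 558, 737 and 295 CPM. The 12 fibroblast genes summed to 959 CPM and the 12 pericyte and smooth muscle genes to 143 CPM. In 644 other infarct cells, with at most 1 rule gene and no Cdh5 or Pecam1 UMI, they summed to 19901 and 9670 CPM. Pericyte and smooth muscle genes summed to 1433 CPM in peri-infarct and 2012 CPM in sham members. The median infarct member held 64.2 CPM of fibroblast genes, and 18 of the 135 held at least 3 of them. Cells with at least 2 UMIs of at least 3 genes of either kind numbered 7 in infarct and 4 in peri-infarct, and results were also computed without them. Members held a median of 7172.5 UMIs in sham, 5619 in peri-infarct and 18754 in infarct, their summed UMIs were 275792, 320305 and 2536331, and a gene at 3 counts would stand at 10.9, 9.37 and 1.18 CPM. Scrublet, a doublet caller, marked 0, 1 and 1 members, and libraries shared 24 to 204 barcodes per pair, none of them a member's.

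The rule genes themselves are a description of what was chosen. All 7 were found in 90 of the 135 infarct members, 23 of the 52 peri-infarct members and 18 of the 38 sham members. At the limit, 7 infarct cells had 4 of the 7 genes and were kept, and 4 cells had 3 and were not. The 7 held fibroblast genes at 558 CPM and mural genes at 7429 CPM, and the 4 held them at 14588 and 7657 CPM. C1qa, a complement subunit, stood at 7234 CPM in sham, 6625 in peri-infarct and 5103 in infarct members. Csf1r, the receptor for the macrophage growth factor CSF1, went the same way at 1661 CPM in sham, 1177 in peri-infarct and 391.5 in infarct members, whereas Lyz2, lysozyme, ran opposite at 6882 CPM in sham, 10031 in peri-infarct and 32499 in infarct members.

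Spp1 was abundant in infarct members and nearly missing from the other brain members. Not 1 of its UMIs was found in the 38 sham members, which allows up to 10.9 CPM. The 52 peri-infarct members held 603 CPM (95% interval 521 to 694), from 8 cells, 1 of which carried 60.1% of these UMIs. The 135 infarct members held 35965 CPM (95% interval 35732 to 36199.5), that is, 3.60% of all their transcripts. Among infarct members 22 had no Spp1 UMI, 32 lay under 1000 CPM, 21 between 1000 and 10000, and 60 (44.4%, interval 35.9% to 53.2%) at or above 10000 CPM. The quartiles were 99.7, 6052 and 38720.2 CPM and the highest cell reached 211307 CPM, or 21.1% of its transcripts. The infarct cells thus ran from none to a very high level, while sham and peri-infarct cells were almost all at 0.

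**Figure D1:**
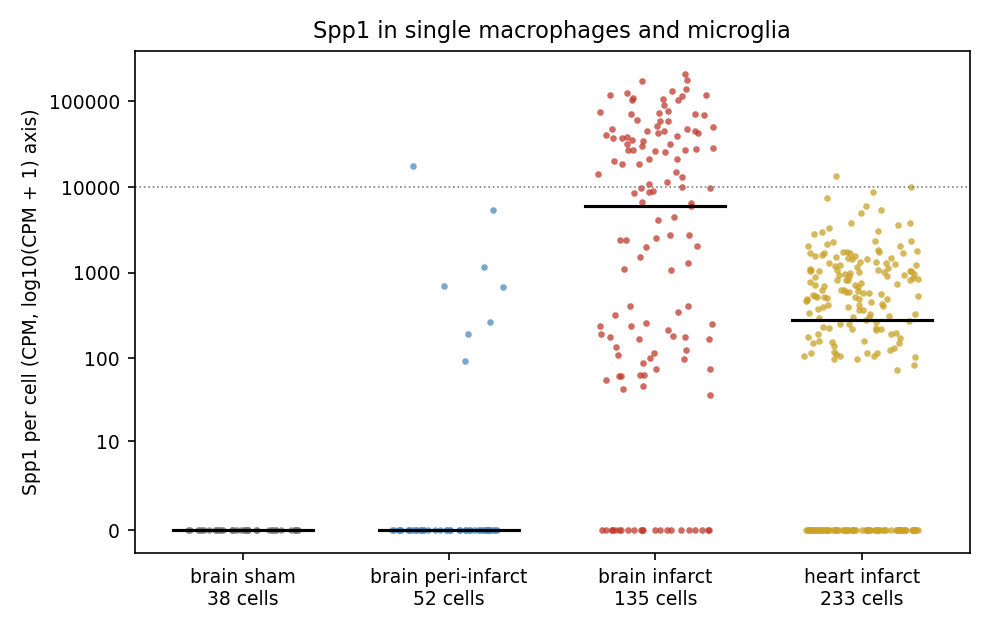
Spp1 per cell in CPM on a log10(CPM + 1) axis for the members of 3 brain libraries and for heart infarct cells chosen by the same rule; each point is a cell, the black line is the median and the dotted line marks 10000 CPM. 60 of 135 brain infarct members sit at or above the line, against 1 of 52 peri-infarct, 0 of 38 sham and 2 of 233 heart infarct cells.

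Spp1 transcripts were not confined to macrophages in the infarct library. The other 1936 infarct cells held 8503 CPM and carried 82.8% of the library's Spp1 UMIs. With each cell thinned to 1000 UMIs, an Spp1 UMI was found in 85 of 135 members (63.0%), in 65.1% of the 1268 other cells that had a Pecam1 or Cdh5 UMI and in 31.7% of the remaining 625. The share of cells with a UMI was thus no higher in members than in the first of these classes (unthinned 83.7% and 88.4%, median depths 18754 and 33637 UMIs). Finding a UMI therefore did not set members apart. That class had a median of 1701 CPM of Spp1, and 215 of its 1271 cells (16.9%) stood at or above 10000 CPM. The level per cell did differ: 60 of 135 members stood at or above 10000 CPM, against 258 of 1936 other cells (13.3%, interval 11.8% to 14.9%). Free RNA was not tested as a source. Gpnmb and Lgals3 were much lower outside members, since Gpnmb stood at 1.28 CPM and Lgals3 at 13.9 CPM in the other infarct cells, while Fabp5 stood at 1613 CPM there.

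In the comparison of infarct with peri-infarct members, a gene was tested when its mean over both sums reached 50 CPM, 1 CPM was added before ratios, and a ratio of 2 or more in size was called. Of 2506 genes, 134 (5.35%) were called higher in infarct and 300 (12%) lower. Of the 25 genes of the lipid and Spp1 list, 16 passed this limit, 10 of them were higher and none was lower, with a median log2 ratio of 1.35 against -0.09 over all genes tested. Without the 7 and 4 cells with mural or fibroblast transcripts, 10 of 16 were again higher. Spp1 is a member of the list and is part of what drew attention to these cells. A passing gene may have passed through the infarct level alone, so the count describes these genes and supports nothing further.

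Among the lipid genes, Gpnmb stood at 0 CPM in sham, 9.37 in peri-infarct and 1180.0 in infarct members, with a log2 ratio of infarct over peri-infarct of 6.83 that rests on 3 peri-infarct UMIs in 1 cell (counting interval of the ratio 43.1 to 611). It was found in 71 of the 135 infarct members. Fabp5 stood at 21.8 CPM in sham, 144 in peri-infarct and 3265 in infarct members (log2 ratio 4.50, interval of the ratio 17.0 to 31.1). Plin2, the droplet coat, was at 301 CPM in sham, 215 in peri-infarct and 1883 in infarct members (log2 ratio 3.12). The order differed by gene, in that Plin2 was low in both sham and peri-infarct members, whereas Lgals3 already differed between them at 25.4 CPM in sham, 443 in peri-infarct and 2167 in infarct members. Cd9, a tetraspanin, showed the smaller step of a log2 ratio of 0.73, which missed the 2-fold limit, at 254 CPM in sham, 739.9 in peri-infarct and 1227 in infarct members.

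Some lysosomal and cholesterol export genes were also called higher. Cd63, a tetraspanin of late endosomes, stood at 997 CPM in sham, 634 in peri-infarct and 1776 in infarct members, and Lipa, the lysosomal acid lipase, at 112 CPM in sham, 93.7 in peri-infarct and 265 in infarct members. Apoe rose from a high base, at 35973 CPM in sham, 28719.5 in peri-infarct and 64982 in infarct members, a log2 ratio of 1.18. Trem2, the receptor, missed the limit with a log2 ratio of 0.42, at 1215 CPM in sham, 1449 in peri-infarct and 1939.8 in infarct members. Lpl, lipoprotein lipase, was low throughout, with 53.1 CPM in peri-infarct and 49.7 in infarct members. Of 17 lysosome and cathepsin genes tested, 4 were higher and none lower (median 0.63): Ctsb, Ctsd, Ctsl and Gusb. Ctsd, the aspartic protease cathepsin D, stood at 1994 CPM in sham, 3284 in peri-infarct and 7546 in infarct members. Of 9 LXR and cholesterol efflux genes 2 were higher, and no gene of the sterol synthesis and uptake list reached the mean of 50 CPM.

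**Figure D2:**
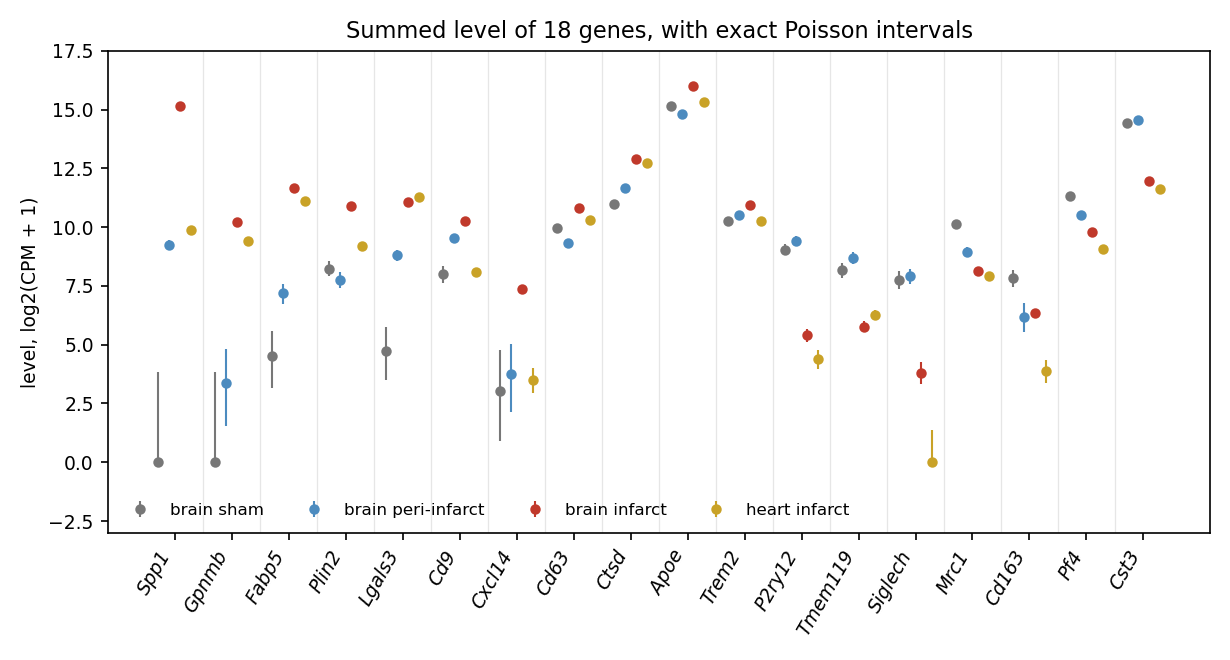
Level of 18 genes, as log2(CPM + 1) of UMIs summed over members, in brain sham, peri-infarct and infarct libraries and in the heart infarct library, with exact 95% Poisson intervals that cover counting error only. Spp1, Gpnmb and Fabp5 are highest in the brain infarct members, and P2ry12, Siglech and Cst3 are lower there than in the other 2 brain libraries.

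Of 8 glycolysis genes tested 5 were higher in the infarct and 1 was lower (median 1.07). Pkm, pyruvate kinase, stood at 87.0 CPM in sham, 106 in peri-infarct and 605 in infarct members, and Gapdh at 417 CPM in sham, 490.2 in peri-infarct and 1533 in infarct members. Hk2, the hexokinase that starts the pathway, went down to 72.5 CPM from 156. In iron handling, Ftl1, the ferritin light chain, and Hmox1, which breaks down haem, were higher and the iron exporter Slc40a1 was lower. Hmox1 was at 674 CPM in sham, 140.5 in peri-infarct and 487 in infarct members, so that the peri-infarct library, not the infarct, stood apart for this gene.

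Most genes of antigen presentation were lower in the infarct, and inflammatory genes were mixed. Of 7 MHC class II genes tested, 6 were lower (median -2.09), with H2-Aa at 261 CPM in sham, 2039 in peri-infarct and 464 in infarct members. H2-Aa was found in 12 of 52 peri-infarct and 36 of 135 infarct cells, so few cells set these sums. Dendritic cell genes, which mark cells that present antigen, moved with them: 2 of 3 tested, Cd209a and Fscn1, were lower, and the 12 genes of that list summed to 737 CPM in peri-infarct and 295 in infarct members. Cd209a alone was at 225 CPM in sham, 244 in peri-infarct and 5.91 in infarct members. Of 4 monocyte genes tested 2, Ccr2 and Nr4a1, were lower as well. The part of either list in the MHC class II values was not tested. Of 7 inflammatory cytokines 3 were lower and none higher, of 16 chemokines 3 were higher (Ccl8, Cxcl1 and Cxcl14) and 3 lower (Ccl9, Ccl12 and Ccl24), and of 19 genes of dissociation stress 6 were lower. Cst3, cystatin C, an inhibitor of cathepsins and a very abundant transcript of macrophages and microglia, fell by 2.62 on the log2 scale, at 21795 CPM in sham, 24111 in peri-infarct and 3928 in infarct members. Among the 10 highest ratios outside the lists' lipid genes were Cxcl14, a chemokine, at 7.25 CPM in sham, 12.5 in peri-infarct and 166 in infarct members, and Acp5, an acid phosphatase of osteoclasts and macrophages, at 29.0 CPM in sham, 37.5 in peri-infarct and 258 in infarct members. Col1a1, Col1a2, Col3a1 and Timp1 were also among the highest 10. Without the 7 and 4 cells with mural or fibroblast transcripts the 3 collagens stood at 12.5 to 19.6 CPM in infarct members, and no fibroblast gene was tested. Among the 10 lowest, Retnla rested on 1 peri-infarct cell, which held all of its 97 UMIs there.

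Scaling changes the balance of these counts. With edgeR's TMM factors, 360 genes were higher and 136 lower, the share of higher calls went from 30.9% to 72.6%, and the median over all genes moved from -0.09 to 0.34. The lipid list then had a median of 1.78, the microglial list -1.92 and the MHC class II list -1.67, and the medians of phagocytic receptors, complement and interferon genes changed sign, to 0.157, 0.158 and 0.306.

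Microglial genes were lower in infarct members. Of 21 microglial genes 14 passed the limit, 12 of them were lower and none higher, with a median log2 ratio of -2.59. Leaving out the cells with mural or fibroblast transcripts gave 12 of 14 again. A passing gene may have passed through the peri-infarct level alone, so this count too describes these genes and supports nothing further. P2ry12, a purinergic receptor of homeostatic microglia, stood at 526 CPM in sham, 687 in peri-infarct and 41.4 in infarct members, a log2 ratio of -4.02. Tmem119 was at 286 CPM in sham, 412 in peri-infarct and 53.6 in infarct members and Siglech, a sialic acid-binding lectin, at 214 CPM in sham, 240.4 in peri-infarct and 13.01 in infarct members. Sall1, the transcription factor of microglial identity, was low in each library, at 54.4 CPM in sham, 49.95 in peri-infarct and 6.31 in infarct members. Fcrls was tested and not called, at 845 CPM in sham, 609 in peri-infarct and 559.9 in infarct members.

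Border macrophage genes did not move as a block. Of 21 tested genes 2 were higher and 5 lower in infarct (median -0.44), with 1 and 5 when the cells with mural or fibroblast transcripts were left out. Mrc1, the mannose receptor, was at 1106 CPM in sham, 493 in peri-infarct and 281 in infarct members. Pf4, platelet factor 4, was at 2553 CPM in sham, 1442 in peri-infarct and 886 in infarct members, and Cd163, the haemoglobin scavenger receptor, at 225 CPM in sham, 71.8 in peri-infarct and 79.2 in infarct members. These 3 genes were highest in sham. Ccl8 ran the other way, at 377 CPM in sham, 325 in peri-infarct and 683 in infarct members. Maf, a transcription factor of tissue macrophages, was at 2197 CPM in sham, 793 in peri-infarct and 245 in infarct members, and Ccl24 at 682 CPM in sham, 197 in peri-infarct and 13.4 in infarct members.

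Over single cells, sham and peri-infarct members formed a group high in border genes and a group high in microglial genes, whereas most infarct members had no pair of either kind. The median infarct member held 2978 CPM of microglial genes and 3199 CPM of border genes, against 3270 and 16747 CPM in sham and 3709 and 2536 CPM in peri-infarct. A set of 4 microglial genes (P2ry12, Tmem119, Sall1 and Siglech) and a set of 4 border genes (Cd163, Lyve1, Cd209f and F13a1), both chosen after the values were seen, sorted cells by whether at least 2 of the 4 were found. Of 38 sham members 11 had the microglial pair, 21 the border pair, 3 both and 3 none. Of 52 peri-infarct members these numbers were 21, 16, 1 and 14. Of 135 infarct members they were 21, 28, 7 and 79, although infarct cells were the deepest. With the full lists the result depends on the number of genes asked for: at 10000 UMIs per cell 88 of 101 infarct members (87.1%) held at least 3 genes of each list, 6 of the microglial list alone, 5 of the border list alone and 2 of neither. At 1000 UMIs per cell 20 of 135 held both, 23 the microglial list alone, 45 the border list alone and 47 neither. The microglial list includes Sparc, which the 644 infarct cells with at most 1 rule gene and no Cdh5 or Pecam1 UMI held at 4033 CPM.

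The infarct cells with neither pair carried the most Spp1. Their summed Spp1 was 48313 CPM and 50 of 79 stood at or above 10000 CPM. The 21 cells with the microglial pair held 34631 CPM, with 9 at or above that level. The 28 cells with the border pair held 484 CPM, none reached 10000, and the highest was at 2767 CPM. Gpnmb was at 1594 CPM in the cells with no pair, 1143 in those with the microglial pair and 9.78 in those with the border pair alone. Mrc1 was at 35.8 CPM in the cells with no pair and 1339.5 in those with the border pair. Of 3 genes of blood monocytes, Ccr2, the monocyte chemokine receptor, was at 30.6 CPM in the cells with no pair, 15.1 in those with the microglial pair and 12.2 in those with the border pair. Plac8 was at 25.4, 2.15 and 19.6 CPM in the same order, and Ly6c2 at 13.03, 60.3 and 0 CPM. These are 3 of the 15 monocyte genes, and their order over the classes differed from gene to gene. The pairs and the class with none were not particular to the brain. Of 233 heart infarct cells chosen by the same rule, 18 had the microglial pair, 17 the border pair, 2 both and 196 none. Summed Spp1 in these heart classes was 683, 84.3, 0 and 1061 CPM. A pair is therefore not read as a cell type.

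**Figure D3:**
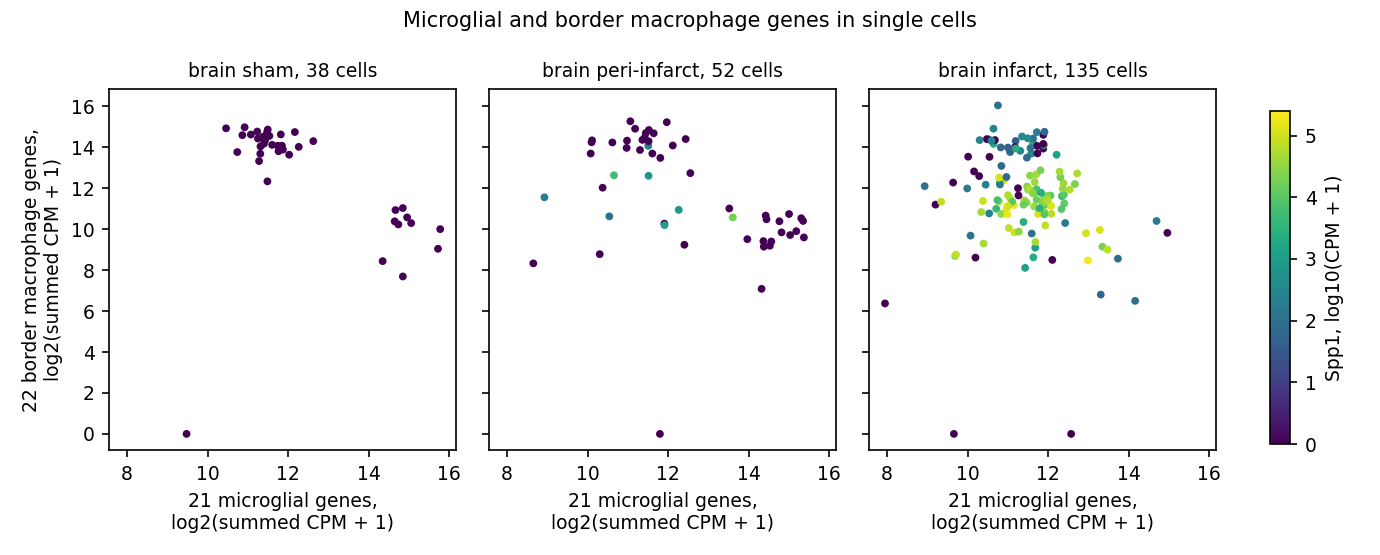
Summed CPM of 21 microglial genes (horizontal) and 22 border macrophage genes (vertical), each as log2(CPM + 1), for single members of the brain sham, peri-infarct and infarct libraries, coloured by Spp1 as log10(CPM + 1). In sham and peri-infarct 2 groups of cells stand apart, and in infarct the 28 cells with the border pair alone hold little Spp1, none of them reaching 10000 CPM.

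The infarct members were then set out along their own range of Spp1, in tertiles of 45 cells that are parts of a range and not types. The lower tertile held at most 193 CPM of Spp1, the middle tertile 215 to 27064 and the upper tertile at least 27271, and cells within 2-fold of a limit, on either side of it, numbered 33 at the upper limit and 19 at the lower one. Median depths were 11110, 19787 and 26150 UMIs, and 4, 2 and 1 cells held mural or fibroblast transcripts. Between the upper and the lower tertile, 137 of 2354 genes (5.82%) were called higher and 282 (12%) lower. These are cells of 1 library, so the counts describe them without a test. A gene could again pass the limit through 1 tertile alone, so list counts and medians for the tertiles support nothing further.

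Most lipid genes tested were higher in the upper tertile. Of 14, 9 were higher and none lower, with a median log2 ratio of 1.15 (8 of 14 without the mural and fibroblast cells). Gpnmb was at 11.01 CPM in the lower, 1048 in the middle and 1833 in the upper tertile, and was found in 2, 28 and 41 of 45 cells. Fabp5 was at 242 CPM in the lower, 2739.7 in the middle and 5087 in the upper tertile. Cd9 was at 235 CPM in the lower, 764 in the middle and 2038 in the upper tertile and Lgals3 at 501 CPM in the lower, 1401 in the middle and 3523 in the upper tertile. Apoe peaked in the middle tertile, at 36327 CPM in the lower, 89661 in the middle and 60442 in the upper tertile. Of 8 glycolysis genes 6 were higher and none lower (median 1.31), and of 17 lysosomal genes 5 were higher and 1, Ctsc, was lower.

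Border macrophage genes ran against Spp1. Of 19 tested, 16 were lower in the upper tertile and none higher, with a median of -3.13, and the same counts held without the mural and fibroblast cells. Cd163, Lyve1 and Cd209f had no UMI in the upper tertile, which allows up to 2.61 CPM, and stood at 249.5, 259 and 684 CPM in the lower tertile. These 3 passed the limit through the lower tertile alone and could only be called lower, so the count describes the genes. Ccl8 was at 2039 CPM in the lower, 732 in the middle and 3.49 in the upper tertile, and Mrc1 at 725 CPM in the lower, 355 in the middle and 14.8 in the upper tertile. Ms4a7, a border gene also known from macrophages that come from the blood, was level at the ends, at 716 CPM in the lower, 1132 in the middle and 731 in the upper tertile. Interferon genes fell in all 6 tested cases (median -3.45), with Ifitm3, a membrane protein that blocks viral entry, at 2004 CPM in the lower, 529 in the middle and 234 in the upper tertile. Of 16 chemokines 12 were lower and 2, Cxcl14 and Cxcr4, were higher.

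Few microglial genes were called along Spp1. Of 10 tested, 3 were lower in the upper tertile (median -0.80), namely P2ry12, Gpr34 and Ltc4s, with P2ry12 at 130.3 CPM in the lower, 24.9 in the middle and 11.3 in the upper tertile. Tmem119 missed the limit, at 86.2 CPM in the lower, 45.0 in the middle and 44.4 in the upper tertile. With TMM factors 280 genes were higher and 185 lower, the share of higher calls went from 32.7% to 60.2% and the median over all genes from -0.07 to 0.26; the lipid median was then 1.49 and the border median -2.82.

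**Figure D4:**
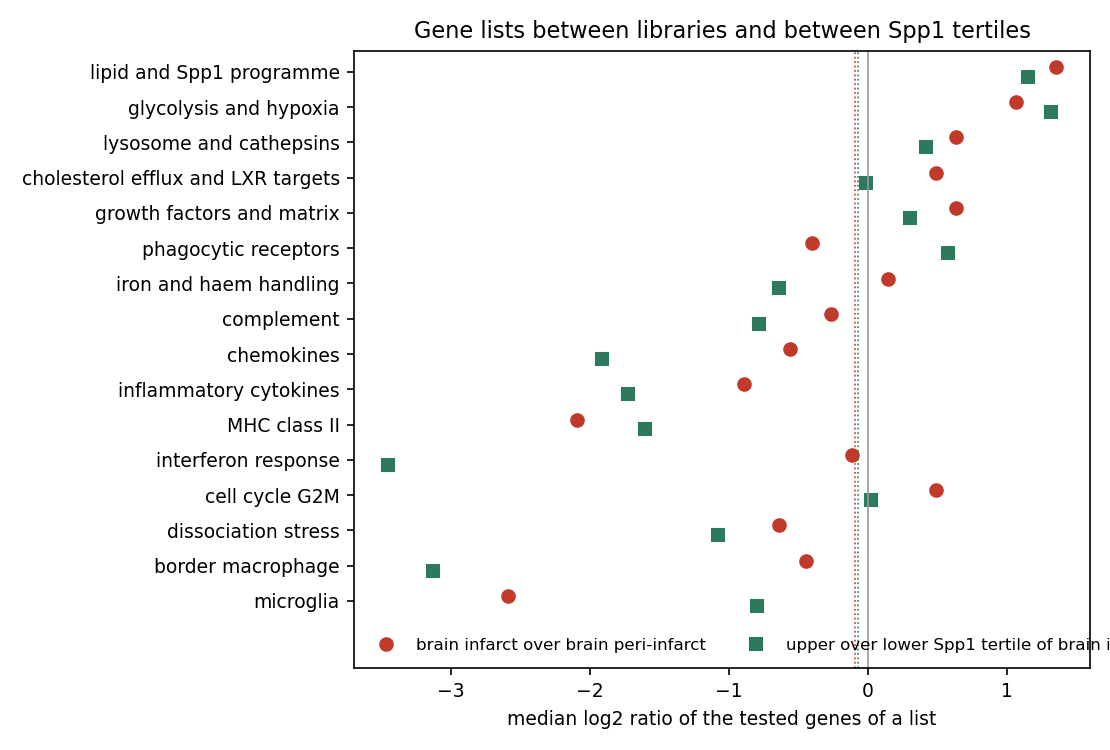
Median log2 ratio of the tested genes of 16 lists, for brain infarct over peri-infarct members (circles) and for the upper over the lower Spp1 tertile of infarct members (squares); dotted lines are the medians over all genes tested. The lipid list lies to the right in both, at 1.35 and 1.15, and the border list lies far to the left for the Spp1 tertiles, at -3.13.

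Pearson correlation with Spp1 over the 135 infarct cells, on log2 of counts per 10000 plus 1, was highest for Fabp5 (0.82), Gpnmb (0.82), Plin2 (0.79), Cd9 (0.77), Syngr1 (0.74), Lgals3 (0.69), Aprt (0.69), Capg (0.67), Cotl1 (0.66) and Pld3 (0.65) among 8020 genes found in at least 10% of the cells. The median over these genes was -0.02. The cells share 1 library and differ in depth, which itself correlated with Spp1 at 0.37. At 10000 UMIs per cell, in 101 cells, Fabp5 was at 0.78 and Gpnmb at 0.81, and in the 128 cells without mural or fibroblast transcripts they were at 0.84 and 0.83. Ifitm3 (-0.73) and Mrc1 (-0.60) ran opposite. Trem2 (0.37), Lpl (0.33) and Apoe (0.28) were weaker, and Tmem119 (0.01) was near 0.

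A minority of infarct members carried transcripts of cell division. With cells thinned to 1000 UMIs, Mki67 (a nuclear protein of cycling cells) or Top2a (topoisomerase II) was found in 9 of 135 infarct members (6.67%, interval 3.09% to 12.3%), 1 of 52 peri-infarct members and 0 of 38 sham members, which allows up to 7.89%. In the same infarct library 101 of 1268 other cells with a Pecam1 or Cdh5 UMI (7.97%) held one. Of 605 cells with neither and with at most 1 rule gene, 22 did (3.64%), so the share in members lay between the 2 classes. At 10000 UMIs it was 22 of 101 in members (21.8%, interval 14.2% to 31.1%), 345 of 1137 in the first class (30.3%) and 55 of 176 in the other (31.2%), and at least 3 G2M genes were found in 28.7%, 48.7% and 38.6%. At this depth members had the lowest shares of the 3 classes, with intervals for Mki67 or Top2a that overlapped. For at least 3 G2M genes the members' interval (20.1% to 38.6%) lay below that of the first class (45.8% to 51.7%). It overlapped that of the other class (31.4% to 46.3%).

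At that depth 3 of 7 sham members held at least 3 G2M genes with neither Mki67 nor Top2a. A call from many genes at once was therefore added after the values were seen. At least 10 of 24 G2M genes were found in 12 of 101 infarct members at 10000 UMIs (11.9%, interval 6.29% to 19.8%), with a median of 1 gene and up to 23. All other infarct cells gave 296 of 1324 (22.4%, interval 20.1% to 24.7%), other sham cells 1 of 205 and other peri-infarct cells 3 of 302. Only 7 sham and 7 peri-infarct members were deep enough, with 0 and 2 such cells. The 12 cells all held Mki67 and 10 held Top2a. All 12 held Apoe and the rule genes C1qa and Lyz2, with Apoe at 35573 CPM against 81155 in the 72 cells with fewer than 3 G2M genes. Of the 12, 1 held mural or fibroblast transcripts. The members also included 1 cell with at least 3 T and NK cell genes, so not every cell counted here need be a macrophage. Spp1 in the 12 cells ran from 0 to 77449 CPM with a median of 18378, and 6 of 12 stood at or above 10000 CPM, as did 37 of the 72. Cells with at least 3 G2M genes numbered 8 of 27, 9 of 34 and 12 of 40 in the lower, middle and upper Spp1 tertile, so they occurred along the whole range. Phase was not called.

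**Figure D5:**
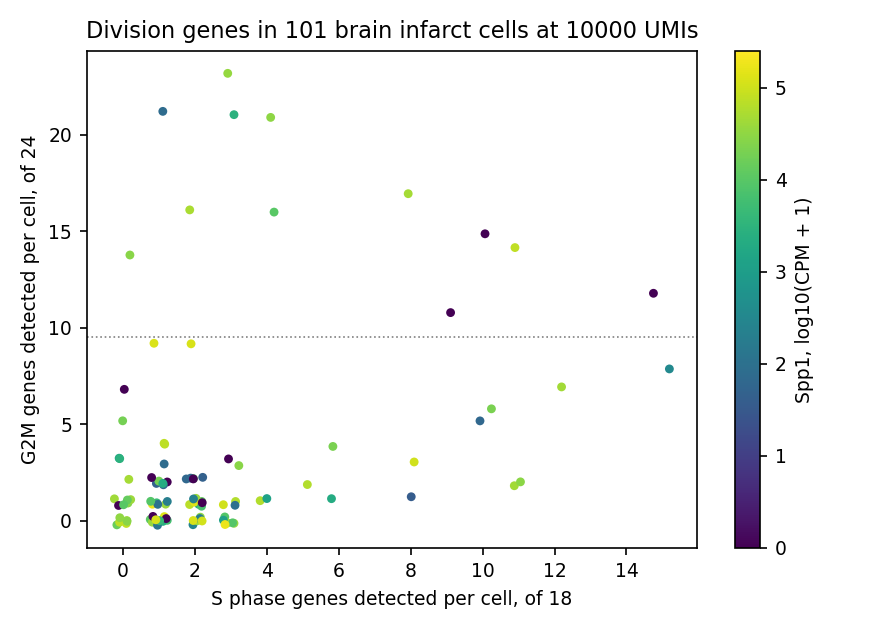
Number of S phase genes (of 18) and G2M genes (of 24) found per cell in the 101 brain infarct members thinned to 10000 UMIs, with a small random offset, coloured by Spp1 as log10(CPM + 1). The 12 cells above the dotted line hold at least 10 G2M genes, and they include cells with and without Spp1.

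The same rule gave 233 cells in the heart infarct library, from mice of the same genotype after ligation of the left anterior descending artery; organ and library cannot be told apart, and Scrublet marked 33 of the 233. Of 2517 genes, 150 (5.96%) were called higher in brain and 399 (15.9%) lower. Spp1 was the largest of the higher ratios, at 35965 CPM in brain against 951 in heart. The rest of the lipid list did not follow it, with 3 of 17 higher and 2 lower (median 0.49): Cd9 (1227 against 271 CPM) and Plin2 (1883 against 586) were higher with Spp1, whereas Lpl (49.7 against 211) and Axl were lower. Gpnmb, Fabp5, Lgals3 and Trem2 missed the limit. Gpnmb was at 1180.0 and 686 CPM, and Lgals3 at 2167 and 2469 CPM. Heart infarct over heart peri-infarct gave log2 ratios of 0.60 for Spp1, 0.93 for Gpnmb and 0.98 for Fabp5.

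Most cytokine genes were lower in the brain infarct members than in the heart infarct cells, and chemokine genes were mixed. Of 9 cytokine genes 7 were lower (median -1.70), with Il1b at 85.2 against 404 CPM and Tnf at 75.3 against 395. Cxcl2, a chemokine for neutrophils, was at 425 against 4325 CPM. Of 15 chemokine genes 4 were higher in brain and 6 lower (median 0.07), with Cxcl14 at 166 against 10.3 CPM and Ccl5 at 86.7 against 14.1 among the 10 highest ratios. Ccl5 rested on few brain cells: it was found in 8 infarct members of the lower Spp1 tertile, up to 12770.5 CPM, and in none of the middle or upper tertile. Of 3 interferon genes 2, Bst2 and Ifi27l2a, were higher in brain (median 1.47). Of 6 G2M genes 5 were higher in brain (median 1.86), but Mki67 was not, at 52.0 against 61.3 CPM. Mki67 or Top2a was found in 6.67% of brain and 5.58% of heart infarct cells at 1000 UMIs per cell. At 10000 UMIs these shares were 21.8% and 20.2%, and at least 3 G2M genes were found in 28.7% and 12.4%. Of 18 border macrophage genes 6 were higher and 1 lower, with Cd163 at 79.2 against 13.7 CPM. Of 10 microglial genes 4 were higher in brain and 2 lower (median 0.51). All 21 genes of that list summed to 3631 CPM in brain and 3366 in heart, where Sparc led with 1782 CPM. The list as a sum therefore did not set brain cells apart from heart cells. Matrix genes such as Postn and Dpt were among the 10 lowest ratios, and the 12 fibroblast genes summed to 5494 CPM in the heart cells; their part in these ratios was not tested. With TMM factors 357 genes were higher and 242 lower, and the share of higher calls went from 27.3% to 59.6%.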

How the data were processed

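The authors deposited 1 matrix of whole-number UMI counts per library, with genes in rows and cell barcodes in columns; per the submitters' processing notes they were made with Cell Ranger 3.0.2 on mm10 and analysed with Seurat 3, with roles and settings not given in the sources used here. Sequencing was 10x 3′, per the labels' protocols, so a count is a captured 3′ end. From the deposited counts of 31053 genes, cells with at least 500 genes and at most 10% mitochondrial UMIs were kept, members were chosen by marker genes, and their UMIs were summed per library and scaled to CPM. Ratios used CPM plus 1, a mean of at least 50 CPM and a 2-fold limit. In every comparison a gene could reach that mean through 1 side alone. With 1 library per group no test was made. Intervals were exact Poisson and Clopper-Pearson at 95%, and floors were 3 counts; UMIs correct for PCR copies, and intervals and floors cover counting error only. No clustering was done. Doublets were called with Scrublet (scanpy 1.11.5) and left in. Python 3.11.15 and edgeR 4.0.16 (for TMM factors only) were used, and the steps were tested on simulated data. Library totals were 11796570 to 54810989 UMIs in brain. The sham library held 38 members, under the 50 set for a comparison across genes, so only its levels are given. The members and gene lists were chosen with earlier results of these data known. Named were the 10 highest and 10 lowest ratios per comparison, members of each list, 19 fixed genes, the 10 highest correlations with Spp1 and the 15 most abundant genes, as far as the text needed them. Alternatives were the cell limits, doublet rules, depth, scaling, the CPM limit, the pseudocount and the way of cutting Spp1. Promoter windows came from RefSeq on GRCm38.p6; Fabp5 had none there. One gene of the lists is not reported here.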

Additional observations from a re-analysis of the deposited data

How the results depend on the processing

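The limits lie in 1 library per group, 38 to 135 brain members, unequal depth, and members chosen by their own transcripts. Of 4486 recomputed list medians and gene ratios, 4062 stayed within 0.5 on the log2 scale, 399 moved further and 25 reversed. Reversed means a change of sign from a main value of at least 1 in size. Changes of sign from smaller values were counted under the first 2 labels. Of 130 main values, 99 stayed within 1.5 times for counts or within the 95% interval for shares, and 31 did not. The share of members was 7.73% with Cdh5 allowed, and 46.2% with mural and fibroblast cells left out, which removes most other cells. For infarct over peri-infarct, higher and lower counts were 283 and 715 thinned to 1000 UMIs, 360 and 136 with TMM, 253 and 894 at 20 CPM and 78 and 132 at 100 CPM. For brain over heart infarct, 257 were higher when thinned, and counts were 357 and 242 with TMM, 273 and 1024 at 20 CPM, and 94 and 167 at 100 CPM. For the Spp1 tertiles they were 349 and 491 thinned, 280 and 185 with TMM, 252 and 779 at 20 CPM, 86 and 146 at 100 CPM, and 86 higher when cut in 2. The share with a division transcript was 21.5% not thinned and 21.8% at 10000 UMIs. The share with both lists was 95.05% at 2 genes, 78.2% at 4 and 5.19% for pairs of 4 genes, the last chosen after seeing the data.

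Reversed log2 ratios follow, and the cause was not tested. For infarct over peri-infarct, Col1a1 was at -6.11 and Col1a2 at -0.47 thinned to 1000 UMIs, and Retnla at 0.53 without the 5% of cells with most UMIs. For brain over heart infarct, Saa3 was at -0.052 with at least 3 markers. The fibroblast median was 0.29, Col1a1 0.87 and Col1a2 0.39 with Cdh5 allowed, and 0.40, 1.04 and 0.40 without Scrublet calls. For the Spp1 tertiles, the fibroblast median was -0.26 with Cdh5 allowed, and Col3a1 was at -5.64 when thinned. Without mural and fibroblast cells Col1a1 was at -1.54, Col1a2 at -0.19, Timp1 at -0.0042 and Vtn at 0.33. Without the 5% with most UMIs Col1a1 was at -2.40, Col1a2 at -1.50, Col3a1 at -0.90 and Timp1 at -1.51. Npl was at 0.027 with per-cell means. Cut in 2 parts, the fibroblast median was -0.45, Col1a1 -1.41, Col1a2 -1.10 and Col3a1 -0.45. Infarct over sham was not run, since 38 sham members were too few. No paired analysis was possible because each group had 1 library.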
